A study of Mus musculus with 48 samples.

Results

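Tumor cells that reach the lung through the blood can be recovered early, soon after they lodge there, or late, after weeks of growth. Here a late tail vein lung metastasis (TV-LuM) of 4T1 cells, taken at day 38, was compared with early ones, taken at day 14. The members are 9 of the 48 arrays of the series, chosen by their labels: 3 arrays of the day 38 sub-clone, 3 of day 14 sub-clone #1 and 3 of day 14 sub-clone #2. The late group is therefore a single sub-clone and the early group is a pair, and a gene was taken as changed when day 38 lay beyond both day 14 sub-clones on the same side.

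4T1 is a transplantable mammary carcinoma line of Balb/c mice that spreads to lymph nodes, lung and other organs. The parental cells carry a fluorescent protein with a luciferase, either GFP with firefly luciferase (GFP/fL) or mCherry with Renilla luciferase (mCh/rL). The cells were injected into the tail vein of adult Balb/c mice, and those recovered from the lung were selected in culture with 6-thioguanine, to which 4T1 cells are resistant, and expanded before RNA was taken. The labels give no further treatment. Every array thus measured cultured tumor cells and not lung tissue. The labels do not give the tag of the TV-LuM cells or the number of cells injected, do not say whether day 38 #1 and day 14 #1 are related, and do not say what separates the 3 biological replicates of a sub-clone. The p-values from arrays then measure the spread between cultures of single sub-clones, and a difference between days cannot be told apart from a difference between individual sub-clones. Some of the series' other arrays were used for comparison: 8 parental arrays as the baseline and 10 further sub-clones, from mammary fat pad (MFP) tumors, axillary lymph node (AxLN) tumors and lung metastases seeded from injected AxLN (AxLN-LuM). Of these 10, AxLN #1 of day 14 and AxLN-LuM #5 of day 14 are labelled as removed and were not among the 11 sub-clones fitted below. A single array of MFP #1 is also labelled as removed. It was left out of that fit but kept in the ranges and medians given for the other sub-clones.

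After tail vein injection the lung capillaries are the first bed the cells meet, so that primary growth, invasion and entry into vessels are bypassed. Cells that grow out there must attach, survive stress and proliferate. The gene groups below follow those steps: keratins and junction proteins that hold epithelial cells together, integrins and matrix proteins that bind them to their surroundings, the integrated stress response, which matches protein synthesis to amino acid supply, hypoxia genes, interferon-induced genes and the cell cycle.

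Values are log2 intensities minus the parental mean, taken over both lines within each array plate, so that 0 is the parental level and 1 is a doubling. Day 38 and day 14 #2 were on one plate and day 14 #1 on the other, so the difference from day 14 #2 lies within a plate. The sums of the 9 arrays lay between 6470143 and 6599653 and their medians between 8.61 and 9.15 intensity units. Carcinoma markers were bright on all 9: Epcam, an epithelial adhesion protein, read 987 to 1072 at day 38, against 918 to 983 in day 14 #1 and 584 to 684 in day 14 #2, and Krt8, a simple-epithelium keratin, read 3164 to 3362, against 2964 to 3035 and 3162 to 3311. Of markers for host cells, 5 of 17 for macrophages and neutrophils, 1 of 11 on the array for lymphocytes, 1 of 11 for endothelium, 4 of 13 for fibroblasts and 2 of 13 for lung epithelium were bright enough to test. The summed intensity of the macrophage and neutrophil markers was 324 to 369 on the day 38 arrays, 300 to 321 in day 14 #1 and 269.6 to 274 in day 14 #2. That of the fibroblast markers was 245 to 257, 1554 to 1622 and 468 to 539 in the same order, and without Postn, which made most of the sum in day 14 #1, it was 134 to 144, 156 to 173 and 280.1 to 318. For lung epithelium markers the sums were, in the same order, 146.3 to 169.3, 95.67 to 103.6 and 93.4 to 96.17, with day 38 highest. For endothelium they were 153.5 to 158.1, 177.8 to 206.9 and 173.5 to 186.8, with day 38 lowest. For lymphocytes they overlapped (55.58 to 67.94, 56.76 to 61.54 and 63.62 to 74.67). The part of host cells in the results was not tested.

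Across 11562 protein-coding genes tested, 2042 lay beyond both day 14 sub-clones at day 38 (limma, Benjamini-Hochberg adjusted p under 0.05 against each). Of these, 913 were higher (7.90% of genes) and 1129 were lower (9.76%), and in 2003 of the 2042 no day 38 array overlapped any day 14 array. Without regard to a test, every day 38 array was above every day 14 array in 1478 genes (12.8%) and below in 1651 (14.3%). Most changes were small. A difference of at least 1 from both was seen in 200 genes, 124 higher (1.07%) and 76 lower (0.657%), and a difference of at least 2 in 32 higher and 8 lower. In cell cultures of this kind, a lower share of cells with a transcript and less of it per cell cannot be told apart.

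Over the parental baseline, the early sub-clones differed from each other by more than day 38 differed from day 14 #1, and by less than it differed from day 14 #2. Day 38 differed from day 14 #1 in 1753 higher (15.2%) and 1987 lower genes (17.2%), and from day 14 #2 in 2749 higher (23.8%) and 2976 lower genes (25.7%). Day 14 #2 in turn differed from day 14 #1 in 2296 higher (19.9%) and 2252 lower genes (19.5%), although both came from the same day. Differences of at least 1 numbered 447, 634 and 520 for the 3 pairs, and the SD of the differences over all genes was 0.47, 0.55 and 0.50. The median SE was 0.117, 0.088 and 0.117, so counts of called genes were not equally precise. With no baseline or plate term the counts were 5347, 5410 and 6023, and the early pair then differed in the most genes. That setting leaves the plate difference in both pairs with day 14 #1. The median SD between arrays of a sub-clone was 0.10 at day 38, 0.09 in day 14 #1 and 0.09 in day 14 #2, so each pair differed well beyond the spread between arrays.

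**Figure D1:**
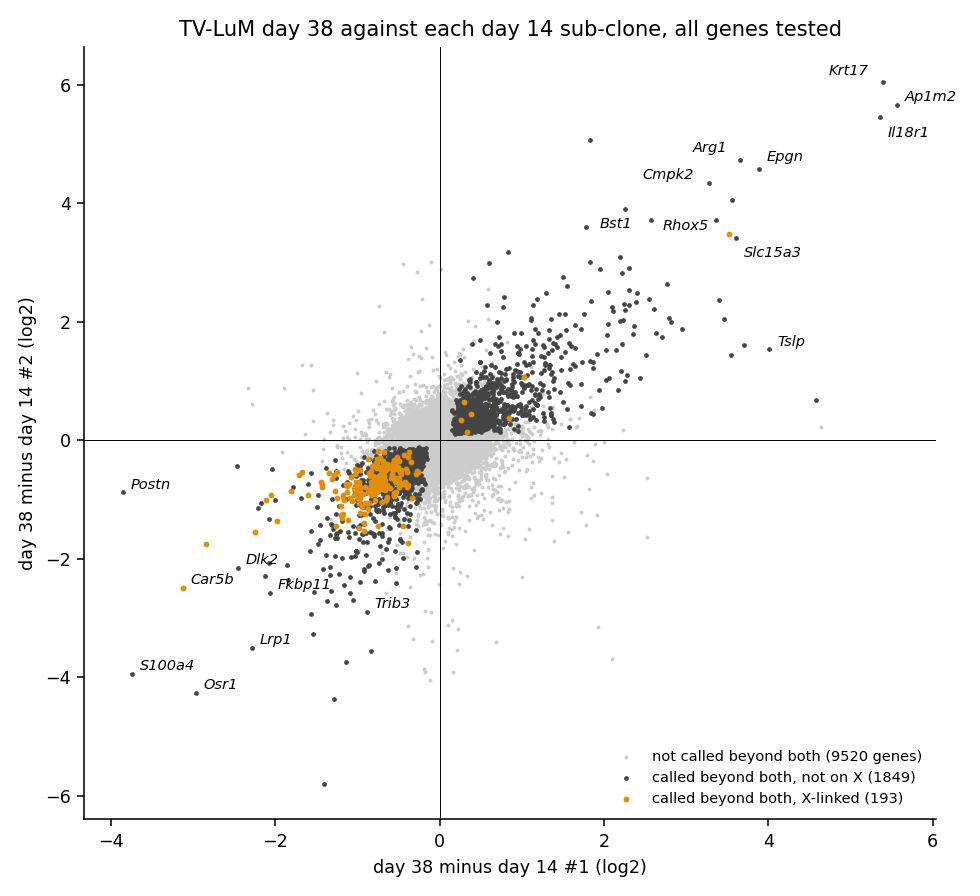
Difference of day 38 from day 14 #1 (x axis) and from day 14 #2 (y axis) for the 11562 genes tested, each in log2 units, with one point per gene. Black points are the 1849 genes called beyond both that are not X-linked, orange points the 193 X-linked ones, and grey points the 9520 genes not called. The called genes lie in the upper right and lower left, and the orange points gather at the lower left.

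Taking the 200 genes by their distance from both early sub-clones makes day 38 the odd one out by construction, so the following is a description. In 172 of them day 38 was farther from the parental level than either day 14 sub-clone, and in 74 day 38 was at least 1 from the parental level while both day 14 sub-clones were within 0.5 of it. The opposite pattern, day 38 within 0.5 of parental and both day 14 sub-clones at least 1 away, held in 6. In 143 of the 200 (86 higher, 57 lower) day 38 also lay beyond all 12 other sub-clones of the series. With the same rule, day 14 #2 as the odd one out gave 252 genes, 155 of them farther from the parental level and 93 beyond all 12 others, and day 14 #1 gave 130, 45 and 70.

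The genes highest at day 38 were led by epithelial ones. Ap1m2, the medium subunit of the AP-1B clathrin adaptor that sorts proteins to the basolateral membrane of epithelial cells, read 2.63, 2.52 and 2.67 on the day 38 arrays, against -3.40, -2.76 and -2.71 in day 14 #1 and -2.80, -3.48 and -2.89 in day 14 #2. It was thus above the parental level late and below it in both early sub-clones, with no overlap (mean intensity 320 at day 38, 5.49 in day 14 #1, 6.42 in day 14 #2 and 47.5 in the parental lines). The difference was 5.57 ± 0.24 (SE, n = 3 arrays each) from day 14 #1 (adjusted p = 3.05e-09) and 5.67 ± 0.18 from day 14 #2 (adjusted p = 2.05e-11). Krt17, a keratin of basal and wounded epithelium, read 6.95, 6.85 and 6.95 at day 38, against 1.69, 1.84 and 1.05 in day 14 #1 and 1.29, 0.88 and 0.46 in day 14 #2. All TV-LuM arrays exceeded the parental level, the late ones by far the most: the mean intensity was 1314 at day 38, 34.5 and 20.5 at day 14 and 11.5 in the parental lines, and the highest of the 10 sub-clones outside TV-LuM reached 2.54.

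Signalling and metabolic genes followed. Il18r1, a chain of the interleukin-18 receptor, read 5.57, 5.31 and 5.43 at day 38, against 0.03, 0.20 and 0.01 in day 14 #1 and -0.07, -0.10 and 0.13 in day 14 #2. The early arrays sat at the parental level, but outside TV-LuM one sub-clone, AxLN-LuM day 36, reached 4.63. Epgn, which encodes the EGF receptor ligand epigen, read 4.46, 4.20 and 4.64 at day 38, against 0.85, 0.31 and 0.50 in day 14 #1 and -0.23, 0.03 and -0.23 in day 14 #2. It was high in the late sub-clone alone among all 13, the highest other being 0.87 (AxLN-LuM day 36). Arg1, the arginase that splits arginine into ornithine and urea, read 4.96, 4.94 and 5.05 at day 38, against 1.19, 1.36 and 1.46 in day 14 #1 and 0.12, 0.31 and 0.33 in day 14 #2. Day 38 exceeded the nearer early sub-clone by 3.65 ± 0.31 (adjusted p = 1.46e-06), and the 2 early sub-clones themselves did not overlap.

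Tpm2, an actin-binding tropomyosin, read 4.19, 4.36 and 4.55 at day 38, against 1.02, 1.43 and 0.56 in day 14 #1 and 0.73, 0.26 and 0.96 in day 14 #2. Rhox5, an X-linked homeobox gene best known from the testis, read 3.58, 3.49 and 3.07 at day 38, against -0.19, -0.16 and -0.07 in day 14 #1 and 0.06, -0.08 and -0.27 in day 14 #2. Both were near the parental level in the 10 sub-clones outside TV-LuM, at most 0.81 for Tpm2 and 0.33 for Rhox5. Slc15a3, a lysosomal peptide transporter (3.60 and 3.42 above day 14 #1 and #2), Crip2, a LIM-domain protein (3.40 and 2.36), Gstk1, a glutathione transferase (2.77 and 2.64), Bst1, an ADP-ribosyl cyclase of the cell surface (2.57 and 3.72), and Smagp, a small adhesion glycoprotein (2.55 and 2.39), were also among the 15 with the largest rise. The cytokine gene Tslp rose by 4.01 and 1.53, with intensities of 1974 at day 38, 117 in day 14 #1 and 683 in day 14 #2. Several of the genes that rose were dim early: 7 of the 152 genes examined by name averaged below the filter level in day 14, and Il18r1, Rhox5 and Tpm2 would not have entered the tests without the day 38 arrays.

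The steepest fall was in S100a4, a calcium-binding protein long studied in metastasis and motility. It read -3.31, -3.56 and -3.88 on the day 38 arrays, against 0.10, 0.22 and 0.18 in day 14 #1 and 0.36, 0.36 and 0.35 in day 14 #2. The mean intensity was 85.6 at day 38, against 1154 and 1297 in the early sub-clones and 1021 in the parental lines, so that the early arrays were slightly above the parental level and the late ones far below it. The difference was -3.75 ± 0.14 from day 14 #1 (adjusted p = 1.06e-09) and -3.94 ± 0.10 from day 14 #2 (adjusted p = 4.52e-12). The low level was not seen only here, since the lowest sub-clone outside TV-LuM stood at -3.37. That was AxLN-LuM #5 of day 14, which is labelled as removed.

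Osr1, a zinc-finger transcription factor, read -3.56, -3.28 and -3.68 at day 38, against -0.59, -0.57 and -0.46 in day 14 #1 and 0.82, 0.75 and 0.72 in day 14 #2. Lrp1, a large endocytic receptor, read -2.99, -3.41 and -3.05 at day 38, against -0.87, -0.92 and -0.80 in day 14 #1 and 0.41, 0.28 and 0.36 in day 14 #2. In both genes the 3 sub-clones were fully separated, with day 38 lowest and day 14 #2 highest. Ackr3, a scavenging receptor for the chemokine CXCL12, read -2.63, -1.50 and -2.40 at day 38, while all 6 day 14 arrays lay between -0.06 and 0.14. Here the late arrays were spread more widely than the early ones, and still all below them.

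Fkbp11, a peptidyl-prolyl isomerase of the secretory pathway, read -1.91, -1.64 and -1.97 at day 38, against 0.19, 0.23 and 0.24 in day 14 #1 and 0.69, 0.71 and 0.79 in day 14 #2. Dlk2, a membrane protein related to Notch ligands, read -2.28, -2.40 and -1.93 at day 38, against 0.41, 0.21 and 0.12 in day 14 #1 and -0.04, -0.07 and -0.04 in day 14 #2. Neither gene fell as far in any of the 10 sub-clones outside TV-LuM. The lowest values there were -1.33 for Fkbp11, in the removed AxLN-LuM #5 of day 14, and -0.83 for Dlk2. Car5b, an X-linked mitochondrial carbonic anhydrase, Itga7, a laminin-binding integrin, and Mecom, a zinc-finger transcription factor, fell by 2.49, 2.07 and 1.86 from the nearer early sub-clone.

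**Figure D2:**
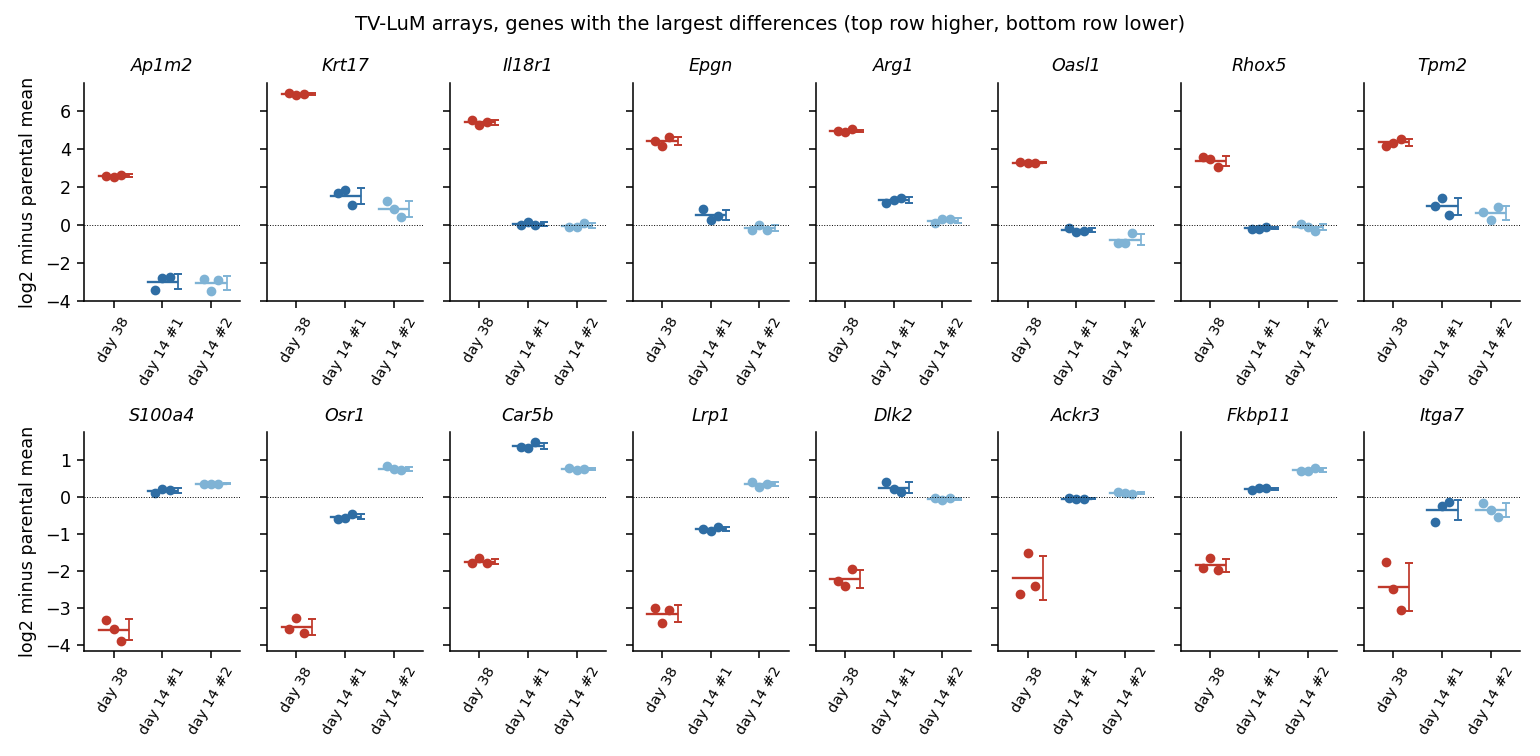
Log2 intensity minus the parental mean of the plate (y axis) on each of the 9 TV-LuM arrays for 8 genes that rose (top row) and 8 that fell (bottom row), with day 38 in red, day 14 #1 in dark blue and day 14 #2 in light blue. Lines are means and error bars are SD over 3 arrays; the 3 day 38 points lie apart from all 6 day 14 points in every panel.

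Sub-clones, and not arrays, are the independent units for a difference between days. When each sub-clone was reduced to its mean and the spread was taken from 11 sub-clones in 5 groups, with the lone day 38 sub-clone assumed to vary like the others, 11 genes were called (0.0951% of 11562), 9 higher and 2 lower, and 714 (6.175%, where no change gives 5%) had an unadjusted p under 0.05. All 11 were among the 2042 above. Rhox5 and Tpm2 passed the filter on dim genes only through the day 38 arrays (mean log2 3.22 and 3.30 with them, 3.005 and 3.053 without, at a filter level of 3.11), so that their calls follow from where they are high. With the filter mean taken without those arrays, an alternative added after the data were seen, 8 genes were called, all among the 11, and Fjx1 was lost (adjusted p = 0.0569). Rhox5 (3.50 ± 0.28 SE, adjusted p = 0.00241), Tpm2 (3.54 ± 0.27, adjusted p = 0.00241), Cacng4 (2.01 ± 0.18, adjusted p = 0.00568) and Epgn (4.23 ± 0.40, adjusted p = 0.00619) led. Arg1 (4.19), the AP-1 family transcription factor Batf (1.61) and the membrane protein gene Tmem154 were higher and Fkbp11 (-2.32) was lower, each at an adjusted p of 0.0169. The remaining genes were Efs, an adaptor in Src signalling (1.60, adjusted p = 0.018), Dlk2 (-2.30, adjusted p = 0.0236) and Fjx1 (1.78, adjusted p = 0.0466). Cacng4, a calcium channel gamma-family protein, read 2.11, 2.52 and 2.08 at day 38, while the 6 day 14 arrays lay between -0.11 and 0.51 and the 10 sub-clones outside TV-LuM between -0.15 and 0.25.

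The genes with the largest array differences did not pass that test. Its AxLN and AxLN-LuM groups each mixed days, so that its spread also holds differences between days. Not passing it is therefore no evidence that a gene did not change. Ap1m2 had an adjusted p of 0.176, Krt17 of 0.111, S100a4 of 0.191 and Il18r1 of 0.447. For these, and for the gene groups that follow, the differences stand for this one late sub-clone against these early ones. Leaving out day 14 #2 left 4 genes called, and leaving out day 14 #1 left 8.

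The X chromosome stood apart from the others. Of 311 X-linked genes tested, 186 were lower at day 38 than in both early sub-clones (59.8%, beside 9.76% of all genes). Another 7 were higher (2.25%, beside 7.90%). Regardless of the test 255 lay below both, a count that was not made over all genes. The median X-linked gene differed by -0.58 from day 14 #1 and by -0.54 from day 14 #2, a linear ratio of 0.669 and 0.688, while the medians of the other chromosomes lay between -0.19 and 0.19 and the early sub-clones differed from each other by -0.05 on X. X holds 2.69% of the genes tested and 16.5% of those called lower. Without it, 906 of 11251 genes were higher and 943 lower.

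The shift belonged to the late sub-clone. The median of X-linked genes over the parental level was -0.54, -0.64 and -0.57 on the day 38 arrays, against -0.08 to 0.01 on the 6 day 14 arrays. In the 12 other sub-clones of the series it lay between -0.07 and 0.14, so that day 38 was lowest of 13 by a wide gap. All other genes had a median of -0.03 in the late sub-clone. The fall ran along the whole chromosome: in each of 10 consecutive windows of 30 X-linked genes the median was lower by at least 0.2 from both early sub-clones, as against 5 of 365 windows elsewhere. It was smaller among dim genes, with medians of -0.31 and -0.25 in the dimmest 104 genes, -0.72 and -0.70 in the middle 103 and -0.65 and -0.57 in the brightest 104.

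The fall was also seen in bright single genes. Pgk1, a glycolytic kinase, read -0.76, -0.77 and -0.63 at day 38, while the 6 day 14 arrays lay between 0.00 and 0.07; its intensity was 2089 at day 38, against 3468 and 3563. Timp1, an inhibitor of matrix metalloproteases, read -1.20, -1.11 and -1.25 at day 38, against 0.05, -0.08 and -0.02 in day 14 #1 and -0.15, -0.15 and -0.23 in day 14 #2. Hdac6, a cytoplasmic deacetylase, fell by 1.01 and 0.86. Because such genes sit in several of the groups below, counts are also given without X where that changes them. Of the 7 X-linked genes that rose, Rhox5 and Amot, which encodes the tight-junction protein angiomotin, did so by at least 1 (3.48 and 1.02 from the nearer early sub-clone). Of the 311 tested, 13 fell by at least 1, beside 76 of 11562 over all genes (0.657%).

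Outside X, 9 windows moved by at least 0.2 from both early sub-clones. The lower ones were a neighbouring pair on chromosome 3, whose genes begin between 36.1 and 60.5 Mb (medians -0.30 and -0.31 from day 14 #1), 1 on chromosome 10 and 2 on chromosome 17. The higher ones were 1 on chromosome 4 and 3 on chromosome 7, whose genes begin between 19.4 and 28.9 Mb (0.20 to 0.39 from day 14 #1). Positions are those of GRCm38.p6 in the RefSeq annotation, and the DNA of these cells was not measured.

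**Figure D3:**
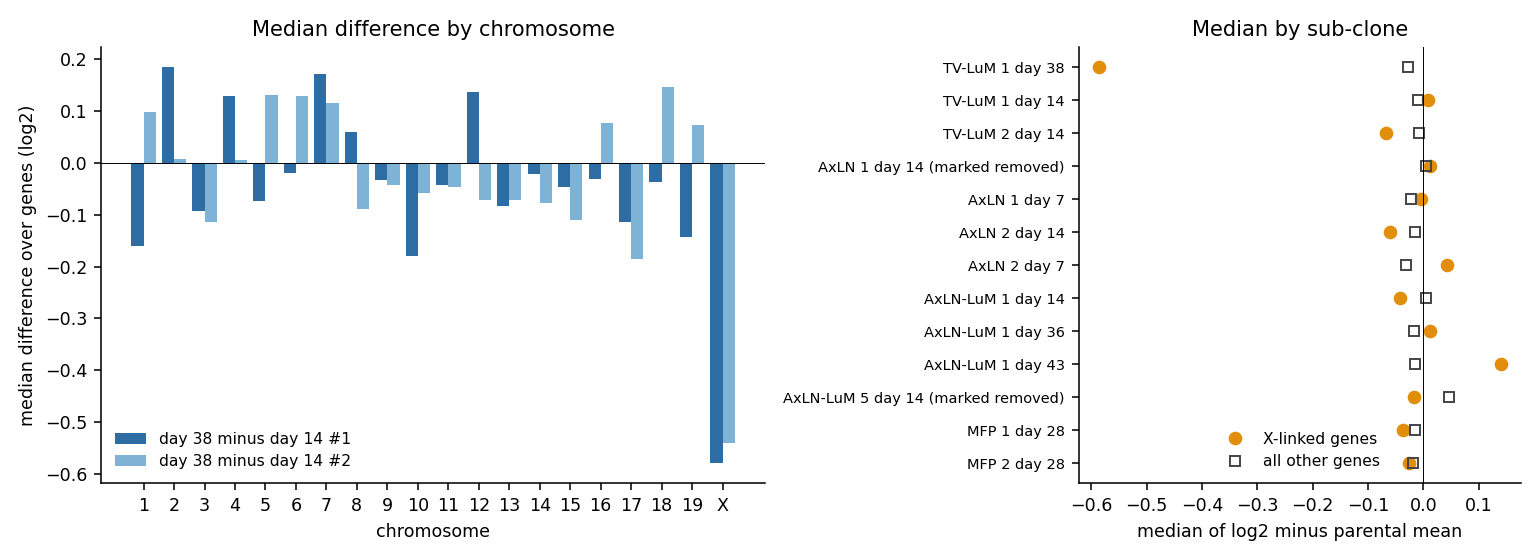
Left, median difference of day 38 from day 14 #1 (dark blue) and from day 14 #2 (light blue) over the genes of each chromosome, in log2 units. Right, median of log2 intensity minus the parental mean in each of the 13 sub-clones, for X-linked genes (orange circles) and all other genes (open squares); X-linked genes of the day 38 sub-clone stand at -0.59 and those of all others between -0.07 and 0.14.

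The integrated stress response was lower in the late sub-clone. This pathway joins sensors of amino acid shortage, misfolded protein and other stresses to the transcription factor ATF4, which induces genes for amino acid synthesis, uptake and stress signalling. Of 27 measured members, 17 fell from both early sub-clones (63%, beside 9.76% of all genes) and none rose, with medians of -0.51 from day 14 #1 and -1.19 from day 14 #2, beside -0.02 and -0.01 over all genes. Part of the gap lay in day 14 #2: the median member stood at -0.55 over the parental level at day 38, at 0.04 in day 14 #1 and at 0.77 in day 14 #2. None of the members was called with sub-clones as replicates.

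Among signalling and transport members, Ddit3, the stress transcription factor CHOP, read -0.65, -0.79 and -0.53 at day 38, against 0.72, 0.93 and 0.48 in day 14 #1 and 1.89, 2.22 and 2.04 in day 14 #2, so that the 3 sub-clones formed 3 separate levels. Trib3, a pseudokinase that restrains the pathway, read -0.38, -1.02 and -0.57 at day 38, against 0.17, 0.27 and 0.24 in day 14 #1 and 2.29, 2.18 and 2.25 in day 14 #2. Slc7a11, the cystine transporter subunit, read -1.41, -1.86 and -1.68 at day 38, against -0.52, -0.25 and -0.40 in day 14 #1 and 1.18, 1.13 and 1.08 in day 14 #2. For all 3 genes the nearer early sub-clone was #1.

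Among genes of amino acid supply, Asns, asparagine synthetase, read -0.61, -0.72 and -0.60 at day 38, against 0.02, 0.02 and 0.05 in day 14 #1 and 0.41, 0.51 and 0.49 in day 14 #2 (intensity 917, against 1475 and 1980). Its difference was -0.67 ± 0.07 from day 14 #1 (adjusted p = 9.93e-06) and -1.11 ± 0.05 from day 14 #2 (adjusted p = 1.39e-09). Psat1 and Psph of serine synthesis, Phgdh at its first step, Shmt2 and Mthfd2 of mitochondrial one-carbon metabolism and the transporter chains Slc3a2 and Slc7a5 fell by 0.30 to 0.72 from the nearer early sub-clone. Chac1, which degrades glutathione, fell by 0.89 and 1.93. Atf4 itself read -0.07, -0.02 and -0.17 at day 38, against -0.02, 0.00 and -0.06 in day 14 #1 and 0.53, 0.64 and 0.61 in day 14 #2, and was not called, as it differed by -0.06 from day 14 #1 (adjusted p = 0.558).

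ATF4 pairs with C/EBP proteins on an element with the letters TGATGNAA (on the other strand TTNCATCA). In promoters of 300 bases (250 before to 50 after the start) from RefSeq on GRCm38.p6, these letters were found in 216 of 9399 promoters of tested genes (2.30%) and in 8 of the 25 list members with a promoter (32%), namely in 5 of 15 that fell and 3 of 10 that did not. The matches with 20 bases on either side in 3 of the genes just described are shown, read along the gene's strand, with the letters of the element in capitals.
Slc7a11 (chr3:50443633-50443699, minus strand): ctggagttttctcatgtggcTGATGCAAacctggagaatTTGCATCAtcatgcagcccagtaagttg
Chac1 (chr2:119351029-119351076, plus strand): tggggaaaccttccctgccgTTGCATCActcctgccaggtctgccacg
Asns (chr6:7693205-7693252, minus strand): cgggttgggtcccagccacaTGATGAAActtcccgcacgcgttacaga
Slc7a11 holds the element on both strands and the other 2 genes once. A match describes the sequence and is not evidence of binding.

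Neighbouring stress programs were lower in part. Of 23 hypoxia and glycolysis genes, 9 fell (39.1%, beside 9.76% of all genes, or 8 without X) and none rose, with medians of -0.20 and -0.37. Car9, a carbonic anhydrase induced by low oxygen, read 0.20, -0.05 and -0.10 at day 38, against 1.08, 1.12 and 1.08 in day 14 #1 and 2.02, 1.91 and 2.01 in day 14 #2, so that the early sub-clones were above the parental level and the late one was at it. Vegfa, the angiogenic growth factor, read -0.52, -0.64 and -0.73 at day 38, against -0.03, 0.10 and -0.11 in day 14 #1 and 0.89, 0.79 and 0.83 in day 14 #2. Of 19 genes of the NRF2 and glutathione response, 7 fell (36.8%) and 1 rose (medians -0.30 and -0.27). Gstp1, an abundant glutathione transferase, was among them at -0.56 and -0.44, and Slc7a11 belongs to this list as well. Hif1a and Nfe2l2, which encode the transcription factors of these programs, were not called.

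Genes of the type I interferon response were higher in the late sub-clone. Type I interferons act through a cell surface receptor to induce antiviral genes, and many tumor cells express these without infection. Of 27 measured members, 13 rose from both early sub-clones (48.1%, beside 7.90% of all genes) and none fell, with medians of 0.65 and 0.90, and the median member stood at 1.68 over the parental level at day 38, at 0.81 in day 14 #1 and at 0.56 in day 14 #2. All TV-LuM sub-clones thus stood above the parental lines. With a filter on dim genes at the 75th percentile fewer members were left and 8 rose, and none was called with sub-clones as replicates. A separate list of 15 class I antigen presentation genes did not rise. None of its members was called higher, and 3 fell (20%, beside 9.76% of all genes), namely Tap2, Psmb10 and Tapbp.

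Oasl1, an oligoadenylate synthetase-like protein, read 3.35, 3.28 and 3.30 at day 38, against -0.11, -0.33 and -0.29 in day 14 #1 and -0.91, -0.92 and -0.42 in day 14 #2. Cmpk2, a mitochondrial nucleotide kinase, read 4.36, 4.35 and 4.29 at day 38, against 1.03, 1.01 and 1.15 in day 14 #1 and -0.07, -0.58 and 0.63 in day 14 #2. Rsad2, the antiviral enzyme viperin, read 2.64, 2.75 and 2.78 at day 38, against 0.84, 0.20 and 0.22 in day 14 #1 and -0.14, -0.38 and -0.03 in day 14 #2. In each the late arrays were within 0.2 of one another and far above the early ones.

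Isg15, a ubiquitin-like modifier, read 2.68, 2.68 and 2.65 at day 38, against 0.97, 0.89 and 1.21 in day 14 #1 and 0.54, 0.78 and 0.85 in day 14 #2 (1.65 ± 0.15, adjusted p = 2.88e-06, and 1.95 ± 0.11, adjusted p = 9.47e-09). Ifit1, which binds foreign RNA ends, read 2.95, 3.10 and 2.57 at day 38, against 1.06, 0.84 and 0.11 in day 14 #1 and -0.29, -0.16 and -0.23 in day 14 #2. Usp18, which removes Isg15 from proteins and damps the interferon receptor, rose by 1.82 and 3.01, and Irf7, a transcription factor of the pathway, by 1.37 and 1.00. High levels were not confined to TV-LuM: an AxLN sub-clone of day 7 reached 5.42 for Usp18 and 4.64 for Irf7, and AxLN-LuM day 36 reached 4.46 for Cmpk2.

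The interferon-stimulated response element was searched as GAAANNGAAA (on the other strand TTTCNNTTTC) in the same promoters. It was found in 279 of 9399 (2.97%), and in 10 of 20 promoters of the list (50%): 6 of 10 genes that rose and 4 of 10 that did not. The stretches of 3 genes just described are given with 20 bases on either side and the matching letters in capitals.
Isg15 (chr4:156200855-156200916, minus strand): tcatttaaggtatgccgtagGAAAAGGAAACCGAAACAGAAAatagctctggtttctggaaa
Ifit1 (chr19:34640765-34640833, plus strand): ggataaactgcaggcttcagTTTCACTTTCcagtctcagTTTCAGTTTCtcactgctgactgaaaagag
Rsad2 (chr12:26456543-26456592, minus strand): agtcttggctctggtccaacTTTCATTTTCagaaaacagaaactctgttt
Isg15 carries 3 overlapping matches, Ifit1 has 2 and Rsad2 has 1. Both elements were thus present in members that moved and in members that did not.

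**Figure D4:**
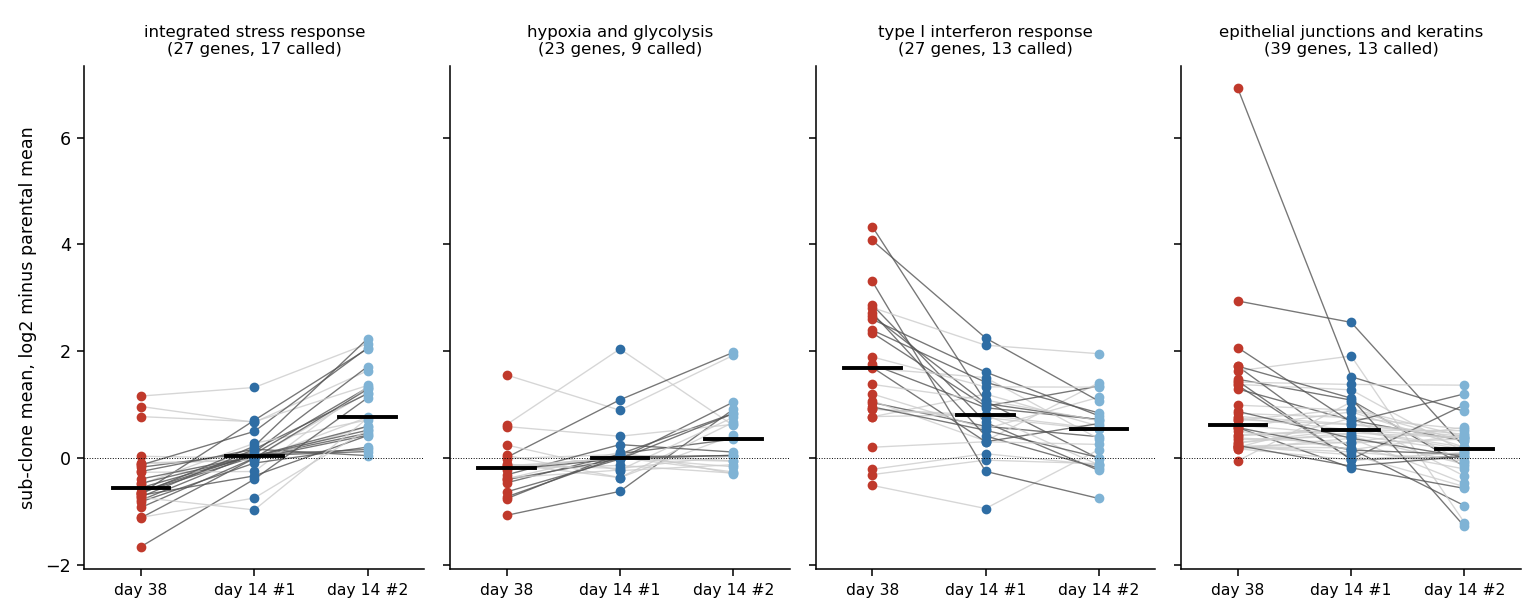
Mean of each sub-clone (log2 minus the parental mean, y axis) for the genes of 4 lists, with day 38 (red) left of day 14 #1 (dark blue) and day 14 #2 (light blue), one line per gene. Dark lines are genes called beyond both and black bars are medians; for the integrated stress response they stand at -0.55, 0.04 and 0.77, for hypoxia at -0.19, 0.01 and 0.36, for interferon at 1.68, 0.81 and 0.56 and for epithelial genes at 0.62, 0.53 and 0.17.

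Epithelial junction and keratin genes leaned upward. Of 39 measured members, 13 rose from both early sub-clones (33.3%, beside 7.90% of all genes) and none fell, with medians of 0.11 and 0.41. The most abundant members were not called: Cdh1, which encodes E-cadherin, differed by -0.10 from day 14 #1 (adjusted p = 0.25) and by 0.26 from day 14 #2 (adjusted p = 0.000498), and Krt8 and Krt18 were not called. Cldn7, a tight-junction claudin, read 1.82, 1.63 and 1.71 at day 38, against 0.28, 0.11 and 0.14 in day 14 #1 and -0.91, -0.99 and -0.76 in day 14 #2. Ehf, an epithelial ETS transcription factor, rose by 1.47 and 1.41. Rab25, a GTPase of epithelial recycling endosomes, read 1.87, 1.78 and 1.52 at day 38, against 1.10, 1.17 and 1.11 in day 14 #1 and -1.45, -1.24 and -1.13 in day 14 #2, so that day 14 #1 was close to day 38 and day 14 #2 was not. Mesenchymal genes moved in both directions: of 16, 3 rose (18.75%) and 5 fell (31.25%), beside 7.90% and 9.76% of all genes. Those that rose were Tpm2, Fn1 (fibronectin, by 0.37 from the nearer early sub-clone) and Tpm1 (by 0.39). Those that fell included S100a4, Postn and Axl. Vim, the filament protein vimentin, also fell, by 0.29 and 1.05, and it was below the parental level at day 38 and in day 14 #1.

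Genes of attachment and matrix moved in both directions. Of 15 integrins, 6 fell (40%, beside 9.76% of all genes) and 1 rose. The medians were -0.03 from day 14 #1 and -0.42 from day 14 #2, and the bright member Itgb1 was not called. Itgb2, the beta chain of leukocyte integrins, read -0.24, -0.15 and -0.20 at day 38, against 1.70, 1.56 and 1.70 in day 14 #1 and 2.17, 2.22 and 2.11 in day 14 #2, which placed the late sub-clone near the parental level and the early ones above it. Of the 5 macrophage and neutrophil markers tested, Cd14 was called higher at day 38 and Cd68 lower, and their part in Itgb2 was not tested. Itgb6, whose product activates latent TGF-beta, read 1.87, 1.88 and 1.65 at day 38, against 0.16, 0.89 and 0.29 in day 14 #1 and -0.54, -0.10 and -0.10 in day 14 #2.

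Of 28 matrix genes, 6 rose (21.4%, beside 7.90% of all genes) and 4 fell (14.3%, beside 9.76%). Tnc, the matricellular protein tenascin-C, read 1.41, 1.54 and 1.42 at day 38, against -0.79, -0.75 and -0.73 in day 14 #1 and -1.47, -1.39 and -1.24 in day 14 #2. It was above the parental level late and below it early, and no sub-clone outside TV-LuM exceeded 0.47. Postn, the matrix protein periostin, read 1.02, 0.82 and 1.11 at day 38, against 4.79, 4.85 and 4.87 in day 14 #1 and 1.90, 1.97 and 1.72 in day 14 #2. The difference of the early pair in Postn was larger than that of day 38 from the nearer of them (-0.88).

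Of 22 proteases and inhibitors, 7 fell (31.8%, beside 9.76% of all genes, or 6 without X) and 2 rose (9.09%, beside 7.90%). The medians were 0.001 from day 14 #1 and -0.19 from day 14 #2. Mmp9, a gelatinase, read 0.88, 0.79 and 0.86 at day 38, against -0.23, -0.12 and -0.18 in day 14 #1 and -0.50, -0.47 and -0.44 in day 14 #2. Mmp3, stromelysin-1, read -4.56, -4.74 and -4.35 at day 38, against -3.20, -3.46 and -2.78 in day 14 #1 and 1.23, 1.24 and 1.28 in day 14 #2. The early sub-clones were thus on opposite sides of the parental level in Mmp3 and on the same side in Mmp9. Of 18 target genes of YAP and TEAD, factors that respond to cell shape and stiffness, 6 rose (33.3%, beside 7.90%) and 1 fell (medians 0.21 and 0.29). F3, tissue factor, which starts coagulation, rose by 1.65 and 1.56, and Ccn2, connective tissue growth factor, by 1.13 and 1.33.

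Of 52 genes of G2 and mitosis, 1 rose (1.92%) and 3 fell (5.77%), both shares below those over all genes (7.90% and 9.76%). Of 39 genes of S phase 1 rose (2.56%) and 7 fell (17.9%, 6 without X), with S phase medians of -0.32 from day 14 #1 and 0.07 from day 14 #2. Mki67 and Pcna, common proliferation markers, were not called. Of a list of 12 genes around Hdac11 and the E2F targets, 1 lay beyond both early sub-clones, Fam83d, a spindle protein. It read -0.30, -0.17 and -0.18 at day 38, against -0.53, -0.43 and -0.52 in day 14 #1 and -0.53, -0.54 and -0.67 in day 14 #2, and its call was lost when any of 4 single arrays was left out. Hdac11, the deacetylase at the centre of the study, read 1.49, 1.60 and 1.01 at day 38, against 0.27, 0.27 and 0.70 in day 14 #1 and 1.28, 1.11 and 0.91 in day 14 #2. It was 0.96 ± 0.24 above day 14 #1 (adjusted p = 0.00719) and 0.27 ± 0.18 above day 14 #2 (adjusted p = 0.241), so that its late level overlapped one early sub-clone and was not called. Of 17 histone deacetylases, Hdac1 (0.55 and 0.22) and Sirt2 (0.38 and 0.19) rose (11.8%, beside 7.90% of all genes). Hdac4 (-0.52 and -0.52) and Hdac6 fell (11.8%, beside 9.76% of all genes, or 1 gene without X). The call of Hdac1 was lost under 8 other settings.

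The criteria that the study stated for a pair of sample types, applied to the linear intensities of all 18961 genes, gave 567 genes higher (2.99%) and 212 lower (1.12%) at day 38. They ask for a sub-clone mean of 1.5 times the parental mean or more, or of 0.5 times or less, which is a wider step downward than upward. With a lower limit of 1/1.5 the counts were 599 higher and 536 lower.

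A late minus early difference can also be formed for lung metastases that arose from AxLN tumors (days 36 and 43 minus day 14), over the same parental baseline. The interaction of the 2 differences was called for 3 genes (0.0259%), all X-linked, and 728 (6.296%) had an unadjusted p under 0.05. None was called when the filter mean was taken without the day 38 arrays: Rhox5 then did not enter, and Ubqln2 and Klf8 had an adjusted p of 0.0521. Rhox5 was 3.50 higher late in TV-LuM and -0.21 in AxLN-LuM (adjusted p of the interaction 0.0418). Ubqln2, a shuttle factor for the proteasome, was -2.29 in TV-LuM and 3.13 in AxLN-LuM, and Klf8, a Krüppel-like transcription factor, was -1.33 and 1.90, both at the same adjusted p. Klf8 was below the filter level at day 38 (6.07 intensity units) and was not called beyond both day 14 sub-clones. On the lists, the median member of the integrated stress response changed by 0.72 late against early in AxLN-LuM, opposite in sign to TV-LuM. That of the interferon list changed by 1.39, of the same sign. Early AxLN-LuM was 1 sub-clone, day 14 #1. Of the 10 outside TV-LuM it was lowest in Klf8, Ubqln2, Ddit3, Trib3, Asns, Cmpk2 and Isg15, though not in Oasl1 or Ifit1. Day 14 #5, labelled as removed and left out, was highest in Ddit3 (2.69), Trib3 (2.26) and Chac1 (1.63), though not in Slc7a11 or Asns. Both signs thus rest on 1 early sub-clone. No member of either list was called for the interaction.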

How the data were processed

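Affymetrix Mouse Gene 2.1 ST arrays were hybridized with RNA of 4T1 cultures. The deposited values are linear intensities, for which the authors ran RMA separately on each plate in Affymetrix Expression Console and scaled the plates to one another before combining them (versions not given in the sources used here). Of 41345 probe sets, 23521 were listed with a single symbol, 1820 with several and 16004 with none, and 23328 were matched by Entrez ID. The protein-coding ones stand for 18961 genes, with the brightest probe set of each gene used, and the 11562 whose mean reached the 50th percentile of probe sets were tested. No arrays were identical (0 pairs).

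Intensities were taken to log2 and the mean of the parental arrays of the plate was subtracted. The plate of the TV-LuM arrays is not in their labels and was taken from the plate difference of the parental arrays, as a technical batch only. Pairs of sub-clones were compared with limma 3.58.1 (lmFit, eBayes) in R 4.3.3 on 17 arrays, 9 TV-LuM and 8 parental, with plate as a term (11 residual degrees of freedom, 2.38 from the prior). Calls required a Benjamini-Hochberg adjusted p under 0.05 against both day 14 sub-clones with the same sign. Sub-clone means were fitted in the same way over 11 sub-clones (6 residual degrees of freedom, 3.16 from the prior). Precision is limited by the small number of arrays and sub-clones.

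Named genes are the 15 in each direction with the largest difference from the nearer day 14 sub-clone, up to 6 called members and the defining members of each list, a list around Hdac11 and the E2F targets, and those with the lowest p over sub-clones; other list members are given in ranges. Amot, Cd14 and Cd68 were named after their values were seen. The comparison, its members and the gene lists were chosen with earlier results of these data known. Same-numbered arrays did not deviate together (correlations from -0.0831 to 0.0404), so numbers were not used as pairs. The alternatives were other baselines, filters, normalization, samples and units of replication, each array left out, and, added after the data were seen, X-linked genes left out and the filter mean taken without the day 38 arrays. The scripts were tested on simulated data. Python 3.11.15 with pandas 2.3.3, numpy 2.4.6 and matplotlib 3.10.9 was used for counts and figures.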

Additional observations from a re-analysis of the deposited data

Results flagged for a closer look

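The late minus early difference of TV-LuM differed from that of AxLN-LuM in 3 genes, each by a test of the difference itself (limma interaction over sub-clones, adjusted p = 0.0418), and none of them was called when the filter mean was taken without the day 38 arrays. It was 3.71 for Rhox5 (3.50 in TV-LuM and -0.21 in AxLN-LuM), -5.42 for Ubqln2 (-2.29 and 3.13) and -3.23 for Klf8 (-1.33 and 1.90). The day 14 and late AxLN-LuM sub-clones number 1 and 2, and day 38 of TV-LuM is 1. The day 14 AxLN-LuM sub-clone was the lowest of the 10 outside TV-LuM in Ubqln2 (-3.25) and Klf8 (-1.71). Klf8 read 6.07 intensity units at day 38, below the filter level of 8.61, and was not called beyond both day 14 sub-clones.

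A single array lay far from the other 5 day 14 arrays in 2 of the 152 genes examined. Chance flags about 1 in 20 groups of like samples, a rate that does not hold for these 6 arrays, which come from 2 sub-clones that differ from each other. Tm7sf2, a sterol reductase, was lowest in day 14 #2 replicate 3 at -0.09, while the others lay between 0.12 and 0.23 (gap 0.644 of the range). Psmb10, an immunoproteasome subunit, was lowest in day 14 #2 replicate 2 at 0.73, while the others lay between 0.85 and 0.89 (gap 0.76 of the range).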

How the results depend on the processing

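The 2042 genes beyond both day 14 sub-clones became 200 when a difference of at least 1 was asked for and 1301 at an adjusted p under 0.01. They numbered 1542 to 2450 under the other baselines, filters, normalization and samples, 1849 without X-linked genes and 1832 to 1909 with each array left out. With the replicate block the number was 2008, of which 1936 were shared, and the pairs of sub-clones had 3671, 5693 and 4444 calls, so the block changed no count by over 1.5 times. The genes with every day 38 array beyond every day 14 array numbered 3308 to 3739 with an array left out, against 3129 with all. Quantile normalization turned the split against day 14 #2 to 2986 higher and 2841 lower.

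The 11 genes called over sub-clones became 30 with no filter on dim genes, 1 with a filter at the 75th percentile, 4 without day 14 #2 and 2 with the TV-LuM sub-clones alone (0 of them shared). With arrays as replicates they became 3990 in 2 groups, 781 with a random block for the sub-clone (correlation 0.596) and 5112 within plate 2. They were 10 to 12 with each array left out. The 3 genes of the interaction became 0 with no baseline, 5 with quantile normalization, 17 with no filter, 1 with the stricter filter, 1 and 0 with the GFP/fL and mCh/rL parental arrays alone as baseline, 0 with the removed AxLN-LuM sub-clone of day 14 added, and 0 with the filter mean taken without the day 38 arrays. The cause was not tested, beyond the number of genes or samples that a setting leaves.

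The X-linked medians were -0.16 and -0.12 with no filter and -0.69 and -0.65 with the stricter one. Of the 152 named genes, 19 lost their call under some setting and 1, Klf8, gained one. Fam83d lost its call under 6 settings, 4 of them with an array left out (day 14 #1 replicate 1 or 3, day 38 replicate 2 or 3), Rab25 under 1 (GFP/fL baseline) and Vim under 1 (quantile normalization). Those that turned sign, Mki67, Pcna and Espl1, were uncalled and near 0. Mki67 was -0.0029 with no baseline. Pcna was 0.0106 with no baseline, 0.0059 with quantile normalization and 0.0061 without day 38 replicate 3. Espl1 was 0.0032 without day 14 #1 replicate 3 and 0.0024 without day 38 replicate 3. With each array left out, Pcna lay between -0.04897 and 0.00613 and Espl1 between -0.04222 and 0.00323. Where day 14 levels were near background, the size of a rise is limited by the dim signal. The same holds for a fall where day 38 levels were near background, as in Klf8.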
